A study of Mus musculus with 10 samples.

Results

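The vomeronasal receptor genes lie in large tandem arrays, and the H3K4me3 windows that carry them were examined in d21 GV oocytes. A window was a member when it lay on chromosomes 1 to 19 and the gene named for it in the deposited table began with Vmn1r or Vmn2r. This gave 1044 of the 544879 windows of 5 kb, with 291 Vmn1r windows of 199 genes and 753 Vmn2r windows of 121 genes, on 10 chromosomes. A further 3 Vmn2r windows on the X chromosome were left out. The values came from 3 Setd1b cKO and 3 WT libraries of H3K4me3 ULI-nChIP-seq, a native ChIP for few cells, with 4 input libraries (replicates 1 and 4 of each genotype) that were sequenced without precipitation. The labels give both genotypes as C57BL6 (C57BL/6OlaHsd in the study's methods) with floxed Setd1b on both alleles, at 21 days of age, with Gdf9-Cre, which is driven by an oocyte-specific promoter, in the cKO and without it in the WT. The methods also count females with Gdf9-Cre and an intact Setd1b allele as WT, so the WT genotype of a given pool was not settled here. The cKO libraries were replicates 1, 3 and 4 and the WT libraries replicates 1, 2 and 4, each from about 200 pooled oocytes. Nothing in the labels says whether the pools of one genotype came from separate litters, so the p-values measure the spread between these pools.

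Vomeronasal receptors are G protein-coupled receptors of the vomeronasal organ, where sensory neurons use them to detect pheromones and other social chemical cues. V1R receptors, encoded by the Vmn1r genes, have a short extracellular end and their coding sequence usually lies in a single exon. V2R receptors, encoded by the Vmn2r genes, have a long extracellular ligand-binding domain and are spread over several exons. Their best known site of expression is the vomeronasal organ. H3K4me3 generally marks active and CpG-rich promoters, and in growing oocytes it also spreads over broad domains away from promoters. SETD1B is one of the methyltransferases that deposit it.

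The 2 subfamilies are sampled differently by 5 kb windows. A single window carried the whole record of 143 of the 199 Vmn1r genes, whereas Vmn2r genes had a median of 6 windows and up to 31. In GENCODE M21, 105 of the Vmn1r and 108 of the Vmn2r windows held the annotated start of their gene. The label was checked against that annotation. Of the Vmn1r windows, 19 are named Vmn1r90 in the deposited table, but their gene identifier belongs to Nlrp5-ps, a pseudogene of another family, in M21. The main Vmn1r means are therefore also given without them, and other values over all Vmn1r windows include them. The profile around gene starts holds protein-coding genes only and leaves this pseudogene out. Many of these genes have near-identical copies. The authors removed reads of low mapping quality, so a copy that cannot be told from another loses its reads in the H3K4me3 and input libraries alike.

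A set of 6 promoter sequences shows what the annotated starts look like. They belong to the start windows with the highest and lowest WT mean of each subfamily among windows with adequate input, and to the 2 start windows that lost H3K4me3 in the cKO. Each runs from 250 bases before to 50 bases after the RefSeq start, 5′ to 3′ on the strand of the gene, in GRCm38.p6, and capitals mark every CG. Vmn1r237 lies at chr17:21313767-21314066 (plus strand), Vmn1r172 at chr7:23658066-23658365 (plus), Vmn1r27 at chr6:58215968-58216267 (minus), Vmn2r103 at chr17:19773113-19773412 (plus), Vmn2r104 at chr17:20048156-20048455 (minus) and Vmn2r110 at chr17:20596210-20596509 (minus).
Vmn1r237: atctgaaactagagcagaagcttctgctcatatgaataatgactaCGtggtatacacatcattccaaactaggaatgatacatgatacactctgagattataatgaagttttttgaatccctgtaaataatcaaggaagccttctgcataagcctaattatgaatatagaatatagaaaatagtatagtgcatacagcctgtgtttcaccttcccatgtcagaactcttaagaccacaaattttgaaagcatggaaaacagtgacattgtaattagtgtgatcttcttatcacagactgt
Vmn1r172: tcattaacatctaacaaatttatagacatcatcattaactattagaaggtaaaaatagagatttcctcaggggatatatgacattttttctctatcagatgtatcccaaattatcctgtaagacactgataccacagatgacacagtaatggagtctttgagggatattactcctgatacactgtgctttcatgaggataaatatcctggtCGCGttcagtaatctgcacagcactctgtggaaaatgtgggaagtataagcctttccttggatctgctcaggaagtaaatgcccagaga
Vmn1r27: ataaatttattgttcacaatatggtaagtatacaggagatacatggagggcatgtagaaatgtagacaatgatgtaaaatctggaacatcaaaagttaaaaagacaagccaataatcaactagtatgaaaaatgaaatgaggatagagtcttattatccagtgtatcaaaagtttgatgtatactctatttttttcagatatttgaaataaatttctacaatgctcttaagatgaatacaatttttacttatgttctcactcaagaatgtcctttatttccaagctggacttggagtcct
Vmn2r103: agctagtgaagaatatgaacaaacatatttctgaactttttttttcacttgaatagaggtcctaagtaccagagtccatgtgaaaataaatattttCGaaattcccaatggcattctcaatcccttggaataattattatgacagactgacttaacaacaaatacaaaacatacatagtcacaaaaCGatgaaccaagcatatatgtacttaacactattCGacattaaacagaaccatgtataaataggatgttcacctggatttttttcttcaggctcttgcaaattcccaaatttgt
Vmn2r104: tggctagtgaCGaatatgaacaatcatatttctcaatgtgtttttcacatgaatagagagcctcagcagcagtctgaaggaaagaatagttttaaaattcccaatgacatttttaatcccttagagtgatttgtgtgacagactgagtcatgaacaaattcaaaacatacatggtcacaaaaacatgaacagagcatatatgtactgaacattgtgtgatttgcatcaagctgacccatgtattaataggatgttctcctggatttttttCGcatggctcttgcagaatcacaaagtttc
Vmn2r110: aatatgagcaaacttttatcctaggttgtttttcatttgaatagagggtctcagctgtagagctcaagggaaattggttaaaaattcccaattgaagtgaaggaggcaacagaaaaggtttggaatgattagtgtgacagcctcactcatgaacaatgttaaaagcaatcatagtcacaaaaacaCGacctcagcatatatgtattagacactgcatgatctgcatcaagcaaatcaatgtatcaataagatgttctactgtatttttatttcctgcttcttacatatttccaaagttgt

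These promoters held between 0 CG (Vmn1r27) and 3 CG (Vmn2r103). Of the 320 member genes, 285 were matched by symbol to a RefSeq promoter. The median promoter held 1 CG in the 177 Vmn1r and in the 108 Vmn2r genes matched, compared to 7 CG over the 27025 genes of the table. No CG was present in 43 of the Vmn1r promoters (24.3%) and 31 of the Vmn2r promoters (28.7%), against 5.78% of all promoters. Only 2 Vmn1r and 1 Vmn2r promoter held 5 or more. In a global alignment, the 3 Vmn2r promoters shown were 67.0% to 78.0% identical to each other, with Vmn2r103 and Vmn2r104 the closest pair, although their start windows stood at opposite ends of the WT range. The 3 Vmn1r promoters were 52.1% to 54.7% identical. All 6 lie within the start window of their gene. The RefSeq start is 2152 bases from the M21 start in Vmn1r237, 2804 bases in Vmn1r27 and 0 to 164 bases in the others.

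Input was lower over the vomeronasal windows than elsewhere. The median window of the genome had an input of 2.07 RPM (reads per window, scaled to library size), and 63 Vmn1r windows (21.6%) and 182 Vmn2r windows (24.2%) held less than 0.5 times that, compared to 11.4% of all windows and 1.87% of the windows of Olfr, the olfactory receptor genes. Windows without an H3K4me3 read in any library were not more common among the members than elsewhere, with 22 Vmn1r windows (7.56%) and 34 Vmn2r windows (4.52%), together 5.36%, against 6.66% of all windows. Low input was concentrated on chromosome 7, which held 57 of the 63 Vmn1r and 128 of the 182 Vmn2r windows with low input. In the following, windows with at least 0.5 times the median input are called mappable. They number 228 for Vmn1r and 571 for Vmn2r.

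The H3K4me3 libraries held between 10856015 and 32775874 reads in windows, and the input libraries between 20756128 and 26566505. H3K4me3 is given as the enrichment-normalized RPKM of the authors, in which the 40th percentile (1.23) and the 99th percentile (6.77) of all windows are equal in every library. This scale does not start at 0. A window without a read was listed at 0.785, −1.02 and −0.70 in cKO replicates 1, 3 and 4, and at 0.81, −0.0359 and 0.2996 in WT replicates 1, 2 and 4. The normalization alone thus gave an unread window a cKO minus WT difference of −0.668. The reads at the 99th percentile were 13.5, 3.47 and 3.88 times those at the 40th percentile in the cKO libraries, and 14.2, 5.38 and 6.97 times in the WT libraries, so that the enrichment differed between libraries of one genotype. Start windows of all 6 oocyte markers checked (Gdf9, Bmp15, Zp3, Figla, Nobox and Dppa3) were above the 90th percentile of all windows in WT. The granulosa cell markers Amh and Kitl were also above it, and Foxl2, Fshr, Inha and Cyp19a1 were not.

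H3K4me3 was low over both subfamilies in WT oocytes. Vmn1r windows averaged 1.42, 1.14 and 1.43 normalized RPKM in WT replicates 1, 2 and 4 (1.33 ± 0.165, SD, n = 3), and Vmn2r windows 1.43, 1.13 and 1.35 (1.30 ± 0.156). Without the windows of Nlrp5-ps the Vmn1r mean was 1.32 ± 0.175. The mean of all windows was 2.02 ± 0.107 and that of Olfr windows was 1.62 ± 0.113. Every WT library placed both subfamilies below Olfr, and Olfr below all windows. Among mappable windows the gap to Olfr was smaller, with 1.57 ± 0.137 for Vmn1r, 1.56 ± 0.108 for Vmn2r and 1.63 ± 0.111 for Olfr, beside 2.22 ± 0.0918 for all. A WT mean above the 90th percentile of all windows was seen in 3 Vmn1r windows (1.03%) and 9 Vmn2r windows (1.20%), and 28.2% and 29.6% of their windows were above the genome median.

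Reads over input also put the receptor genes below all windows, without the normalization. For each library, the share of H3K4me3 reads that fell in a set of windows was divided by the share of input reads in the same set, so that all windows together give 1. Vmn1r windows had 0.559, 0.698 and 0.721 in the WT libraries (0.66 ± 0.0877), Vmn2r windows 0.622, 0.754 and 0.728 (0.702 ± 0.0699), and Olfr windows 0.719 ± 0.0572. Without the windows of Nlrp5-ps, Vmn1r had 0.668 ± 0.089 in WT and 0.612 ± 0.109 in the cKO. In each of the 6 H3K4me3 libraries both vomeronasal subfamilies lay below Olfr on this scale. Among mappable windows this did not hold for Vmn2r in WT replicate 2 (0.765, against 0.756 for Olfr), and in WT replicate 4 both were at 0.746. The mean of the Vmn1r windows was higher than that of the Vmn2r windows in 5 of the 6 H3K4me3 libraries on the deposited scale, by a mean of 0.0563 normalized RPKM, which is less than its spread between libraries (SD 0.0733). Without the windows of Nlrp5-ps the Vmn1r mean was the higher one in 3 of the 6, by a mean of 0.0302 (SD 0.059), and among mappable windows in 3 of the 6, by 0.0474 (SD 0.0817). Over input, the log2 ratio of Vmn1r to Vmn2r was above 0 in 1 of the 6 libraries. No order of the subfamilies was therefore read from these data.

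On the deposited scale, both subfamilies had a lower mean in the Setd1b cKO. In cKO replicates 1, 3 and 4 the Vmn1r windows averaged 1.34, 0.661 and 0.853 (0.952 ± 0.351 normalized RPKM), a difference from WT of −0.375. Vmn2r windows averaged 1.34, 0.569 and 0.677 (0.862 ± 0.418), a difference of −0.442. Replicate 1 of the cKO lay within the range of the WT libraries for both subfamilies, and replicates 3 and 4 lay below it. The median difference was −0.36 over the Vmn1r windows and −0.43 over the Vmn2r windows, beside −0.205 over Olfr windows, −0.208 over windows without a gene and −0.103 over all windows. The last value includes the sex chromosomes, and the median over chromosomes 1 to 19 was −0.0407. As means, Olfr windows differed by −0.259, windows without a gene by −0.185 and all windows by −0.0825. Without the windows of Nlrp5-ps, which averaged 1.57 ± 0.0884 in the cKO and 1.45 ± 0.032 in WT, the Vmn1r difference was −0.41. Among mappable windows the mean difference was −0.319 for Vmn1r (−0.359 without Nlrp5-ps) and −0.397 for Vmn2r, beside −0.254 for Olfr, −0.133 for windows without a gene and −0.013 for all mappable windows. Single libraries weighed on these values. The Vmn1r difference was −0.57 with cKO replicate 1 omitted and −0.23 with cKO replicate 3 omitted, and the Vmn2r difference −0.682 and −0.296. Quantile normalization gave −0.189 and −0.227.

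The size of these mean differences depended on the scale. Over input, the cKO libraries gave 0.495, 0.671 and 0.698 for Vmn1r (0.621 ± 0.11) and 0.536, 0.688 and 0.671 for Vmn2r (0.632 ± 0.0833). The cKO and WT libraries overlapped for both, and the mean log2 differences of −0.09 and −0.16 were smaller than the spread between libraries (pooled SD 0.24 and 0.17). The deposited difference also moved with the value of an unread window and with the enrichment of the libraries, which were lowest in cKO replicates 3 and 4. Their part in the family-wide difference was not tested.

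**Figure D1:**
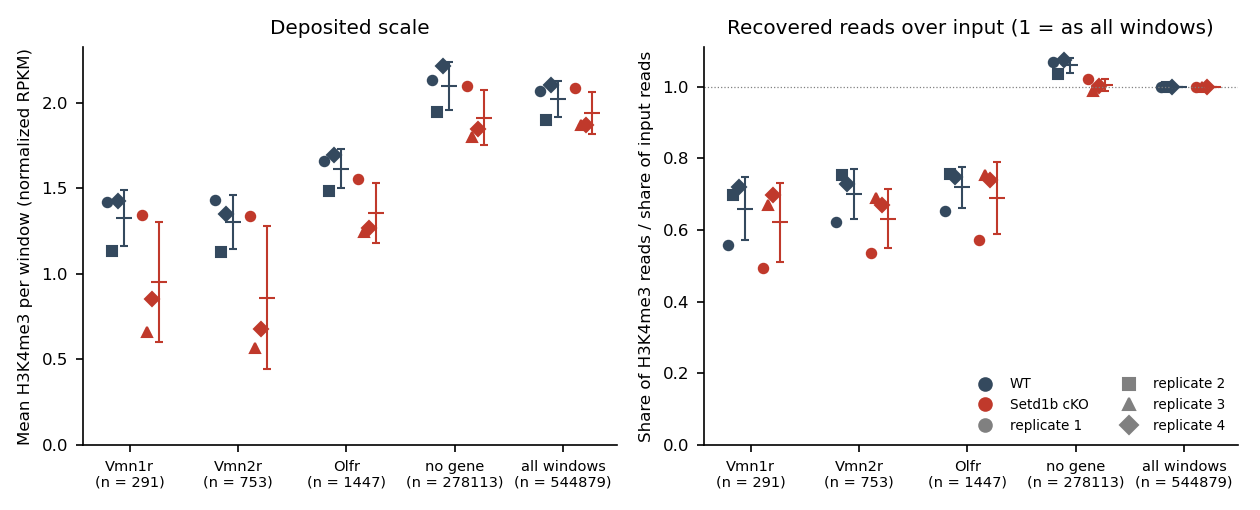
H3K4me3 in windows of Vmn1r, Vmn2r and Olfr genes, windows without a gene and all windows, as the mean of the deposited values in normalized RPKM (left) and as the share of H3K4me3 reads divided by the share of input reads (right). Each symbol is 1 library, blue for WT and red for Setd1b cKO, and the bar beside them is the mean ± SD (n = 3); the genotypes are apart for the vomeronasal windows on the left in cKO replicates 3 and 4, and overlap on the right.

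Averaged over genes, the start of a vomeronasal gene carried no local peak of H3K4me3. The starts of all mappable protein-coding Vmn1r and Vmn2r genes with a member window were taken, of which 59 of 150 and 78 of 88 lay in a member window and the others in a window that the deposited table named for another gene or for none. The 150 Vmn1r starts averaged 1.80 ± 0.118 normalized RPKM in WT, against 1.84 ± 0.138 in the window 5 kb upstream and 1.66 ± 0.153 in the window 5 kb downstream. The 88 Vmn2r starts averaged 1.53 ± 0.162, against 1.64 ± 0.203 upstream and 1.41 ± 0.147 downstream. In every WT library the start was above the downstream window, by 0.142 ± 0.0356 for Vmn1r and 0.125 ± 0.0291 for Vmn2r (mean ± SD of the difference), and in none of them was it above the upstream window. The 60 mappable start windows that were themselves Vmn1r members, with pseudogenes included, averaged 1.56 ± 0.117 in WT, and the 79 of Vmn2r averaged 1.58 ± 0.138. The 20042 mappable starts of all protein-coding genes averaged 3.90 ± 0.0789, against 2.97 ± 0.0972 upstream and 2.54 ± 0.0442 downstream. The cKO means were 1.38 ± 0.214 at Vmn1r starts and 1.06 ± 0.348 at Vmn2r starts, and were likewise without a peak there. Single starts departed from the average. The highest mappable start window of each subfamily, with its promoter printed above, stood over both neighbours in WT. Vmn2r103 had 5.03 normalized RPKM against 2.01 upstream and 3.02 downstream, and Vmn1r237 had 4.31 against 3.88 and 2.39. Both were picked as the highest, a choice that favours a value above the neighbours. The lowest mappable start windows had 0.613 (Vmn1r172) and 0.615 (Vmn2r104) in WT.

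**Figure D2:**
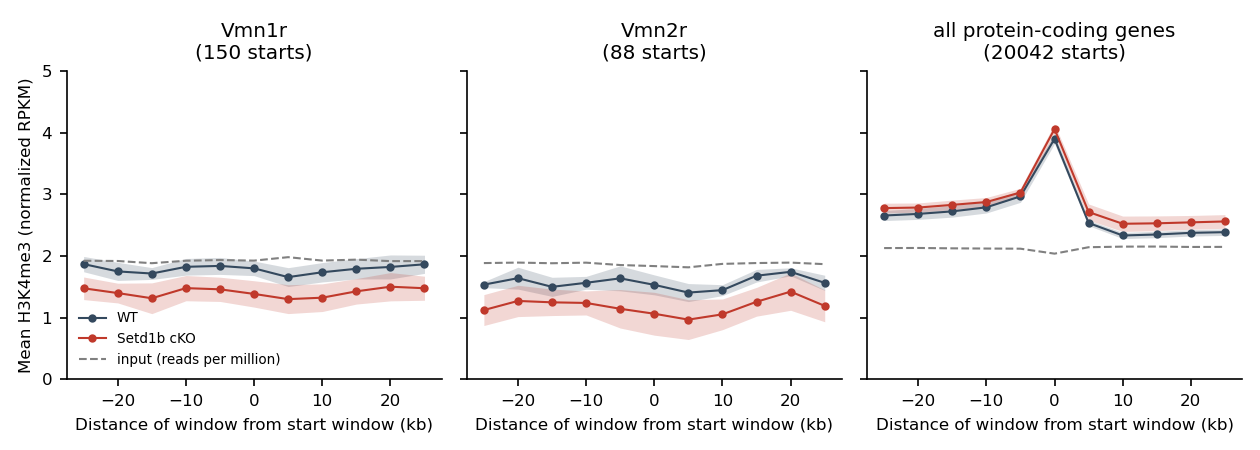
Mean H3K4me3 in windows from 25 kb upstream to 25 kb downstream of the window with the annotated start, along the strand of the gene, for mappable windows of Vmn1r, Vmn2r and all protein-coding genes. Blue is WT, red is Setd1b cKO, shading is ± SD of 3 libraries and the dashed line is input in RPM; all protein-coding genes rise to 3.90 at the start in WT, whereas Vmn1r (1.80) and Vmn2r (1.53) do not.

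H3K4me3 varied little with CpG content in Vmn2r windows and somewhat more in Vmn1r windows. Spearman's rho between the CG count of a mappable window and its mean was 0.0622 in WT and 0.0962 in the cKO for Vmn2r (571 windows), 0.217 and 0.238 for Vmn1r (228 windows), and 0.102 and 0.133 for the 799 together, given as a description over windows that share libraries and base composition. Over the 482804 mappable windows of the genome the same coefficient was 0.24 in WT and 0.439 in the cKO. Between mean input and H3K4me3, rho was 0.246 in WT and 0.365 in the cKO for the 799 member windows. It was 0.0426 and 0.196 over the mappable windows of the genome. The filter on input thus left a relation to input among the members. The median Vmn1r and Vmn2r windows held 21 and 19 CG, compared to 34 in the median window of the genome.

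H3K4me3 differed between arrays. Members were joined into an array where neighbours on a chromosome were at most 500 kb apart. This gave 28 arrays, of which 16 held at least 5 member genes and 922 of the windows. Reads over input in array windows were lower than in the 500 kb on each side of the array in all 6 libraries for 15 of the 16 arrays. The exception was the array from Vmn1r32 to Vmn1r39 (chr6:66550001-66810000, 11 windows), which was lower in 5 of 6 libraries and had the highest WT value of the arrays, 1.29 ± 0.0583 over input, with 1.42 in its flanks. Windows inside the arrays that are not members were also below the flanks in WT in most arrays, so the low level was not particular to members. These inner windows had 0.788 from Vmn2r90 to Vmn1r237 (members 0.816) and 0.573 from Vmn2r65 to Vmn2r76 (members 0.646). From Vmn1r72 to Vmn1r89 they had 1.14, with 0.591 in the members and 0.989 in the flanks.

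The lowest WT values belonged to arrays of different mappability. The array from Vmn2r29 to Vmn2r37 (chr7:7230001-9225000) had 0.25 ± 0.112 over input, but 88 of its 90 windows had low input and the mean input was 0.358 RPM. The largest array by gene number, Vmn1r91 to Vmn1r183 (chr7:20100001-24060000, 61 genes), had 0.429 ± 0.108 with 56 of 80 windows of low input, and the array from Vmn2r46 to Vmn1r71 (chr7:9750001-10750000) had 0.373 ± 0.116 with 26 of 49. By contrast, the array from Vmn1r40 to Vmn1r54 (chr6:89710001-90275000) had 0.26 ± 0.137 with a mean input of 2.04, close to the genome median, and only 1 of its 24 windows had low input. Its flanks gave 0.883. Its cKO libraries gave 0.136, 0.552 and 0.583 over input and its WT libraries 0.115, 0.386 and 0.28, so the genotypes overlapped.

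On chromosome 13 the array from Vmn1r188 to Vmn1r223 (chr13:22085001-23255000) lay close to the genome average, at 0.879 ± 0.102 over input in WT, while its flanks were at 2.13. The 50 Vmn2r windows of chromosome 10 were at 1.04 ± 0.0911, and averaged 2.06 ± 0.223 normalized RPKM in WT. Vmn2r windows of chromosome 17 averaged 1.65 ± 0.13 and those of chromosome 7 averaged 0.958 ± 0.241. For Vmn1r, chromosome 13 averaged 1.98 ± 0.228, chromosome 6 averaged 1.55 ± 0.0965 and chromosome 7 averaged 1.04 ± 0.212. The order of these 3 chromosomes for Vmn1r was the same in each WT library. Chromosome 7 also had the lowest input of these, at 1.33 RPM for Vmn1r and 1.21 for Vmn2r.

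The genotypes were apart over input in 3 of the 16 arrays. In the array from Vmn2r90 to Vmn1r237 (chr17:17700001-21315000, 166 windows), the cKO libraries gave 0.576, 0.72 and 0.62 and the WT libraries 0.768, 0.819 and 0.861. In the array from Vmn1r4 to Vmn1r31 (chr6:56925001-58480000, 41 windows), the cKO libraries gave 0.40, 0.64 and 0.657 and the WT libraries 0.689, 0.814 and 0.828. In the array from Vmn2r-ps54 to Vmn2r63 (chr7:41665001-42935000, 71 windows), the cKO libraries gave 0.422, 0.576 and 0.626 and the WT libraries 0.63, 0.715 and 0.693. In these arrays no cKO library reached a WT library, by a narrow margin in the last. The reverse was seen in 0 arrays. The flanks were apart in the same direction in 2 of the 16 cases, and the windows inside the arrays that are not members in 2 of the 16. In the chromosome 17 array those inner windows went from 0.788 in WT to 0.67 in the cKO, with overlapping libraries, and in the array from Vmn1r4 to Vmn1r31 from 0.888 to 0.613, where flanks and inner windows were apart as well. On the deposited scale, 15 of the 16 arrays had a lower mean in the cKO, and Vmn1r40 to Vmn1r54 was the exception. The flanks were likewise lower in the cKO on this scale, except those of Vmn1r40 to Vmn1r54 and of Vmn1r91 to Vmn1r183. Of all windows, 56.3% had a lower mean in the cKO.

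**Figure D3:**
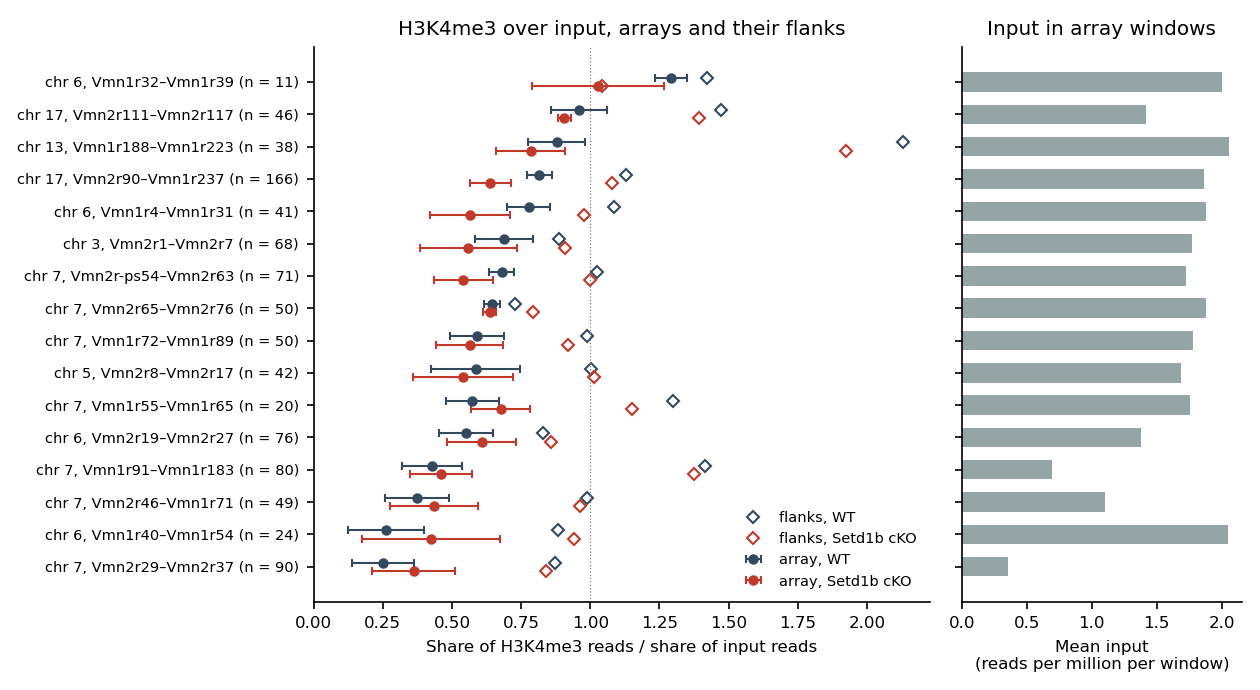
The 16 arrays with at least 5 member genes, named by chromosome, first and last member and number of windows, with the share of H3K4me3 reads over the share of input reads (left; filled circles, mean ± SD of 3 libraries, blue WT and red Setd1b cKO) and mean input (right). Open diamonds are the flanks of 500 kb on each side, which lie to the right of the arrays; Vmn1r40–Vmn1r54 is low at normal input, and Vmn2r29–Vmn2r37 is low with an input of 0.358.

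Of the 8 windows with the highest WT means, 4 in each subfamily, 1 held an annotated start. In Vmn1r they were windows of Vmn1r195 (chr13:22275001-22280000), with 5.36, 6.39 and 5.84 normalized RPKM in WT replicates 1, 2 and 4 (5.86 ± 0.512), of Vmn1r220 (chr13:23180001-23185000, 5.18 ± 0.932), of Vmn1r219 (chr13:23160001-23165000, 4.77 ± 0.642) and of Vmn1r237 (chr17:21310001-21315000, 4.31 ± 0.447). The first 3 lie inside the same chromosome 13 array, and Vmn1r237, whose promoter is printed above, is the only one of the 4 at an annotated start. In Vmn2r they were windows of Vmn2r56 (chr7:12730001-12735000, 6.88 ± 0.217), Vmn2r58 (chr7:41855001-41860000, 5.35 ± 0.38), Vmn2r75 (chr7:86150001-86155000, 5.33 ± 0.30) and Vmn2r82 (chr10:79375001-79380000, 5.11 ± 0.745), all inside the gene body. The 5 kb grid sets this class in part, since the Vmn2r56 window ends 4 bases from its annotated start and the Vmn1r219 window begins 689 bases from its own. At Vmn2r56 the cKO libraries had 6.44, 6.51 and 5.76 (6.24 ± 0.414), each a little under the WT libraries, and the difference did not pass the test (adjusted p = 0.451). Of the 8 windows, only that of Vmn2r58 passed the test between genotypes.

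The lowest WT means at adequate input were at the level of unread windows. Windows of Vmn1r56 (chr7:5190001-5195000) and Vmn1r47 (chr6:90020001-90025000) averaged 0.455 ± 0.455 and 0.578 ± 0.247 normalized RPKM. A window of Vmn2r97 (chr17:18945001-18950000) and a window of Vmn2r51 (chr7:10100001-10105000) averaged 0.488 ± 0.403 each. The Vmn2r97 window held 1, 1 and 8 reads in WT replicates 1, 2 and 4, and 3, 19 and 19 reads in cKO replicates 1, 3 and 4. Input was 1.30 to 2.09 RPM in these 4 windows.

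Loss of H3K4me3 in the Setd1b cKO was called at 9 vomeronasal windows and gain at 0 (limma over all windows, adjusted p under 0.05). The 9 losses were 0.862% of the members, in 2 Vmn1r and 7 Vmn2r windows, and 0.454% of all windows were called as losses. Gains were called at 0.563% of all windows. At an unadjusted p under 0.05, 113 members were lower (10.8%; 8.12% of all windows) and 4 were higher (0.383%; 6.82% of all windows). With edgeR on whole reads, 27 of 903 tested members were lower (1.22% of all windows) and 0 were higher (1.07% of all windows). An intensity trend in limma gave 43 losses (2.01% of all windows) and 0 gains (1.57%), and a fit of mappable windows alone gave 16 losses (0.787%) and 0 gains (0.89%). Without cKO replicate 1 there were 25 losses (1.59%) and 2 gains (1.71%). The share of losses was higher among the members than among all windows in each of these fits, but not in every fit run. Other settings left 0 calls among the members, namely log2(value + 1), quantile normalization, log2(RPM + 0.5) of the reads, adjusted p under 0.01, and the omission of cKO replicate 4 or of any single WT library. Each of these called only 0 or 1 of all 544879 windows, so they do not set the members apart. All cKO libraries lay below all WT libraries at 144 members (13.8%), against 9.95% of all windows, and above at 11 members (1.05%), against 9.88%. These shares lie on the deposited scale, where unread windows differ by −0.668.

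Of the 9 lost windows, 6 lay in the chromosome 17 array, 2 in the chromosome 6 array from Vmn1r4 to Vmn1r31 and 1 in the chromosome 7 array from Vmn2r-ps54 to Vmn2r63. These are the same 3 arrays in which the genotypes were apart over input, a measure that includes the lost windows. The 3 arrays held all losses in this fit and in the fit of mappable windows, whereas losses fell in 9 arrays with the intensity trend and in 6 with edgeR, among them the array from Vmn2r1 to Vmn2r7 on chromosome 3 (5 of 68 and 3 of 67 windows), where the genotypes overlapped over input. They correspond to 3.61%, 4.88% and 1.41% of the windows of each array. Losses fell in 8 genes, with 2 adjacent windows in Vmn2r110. An annotated start lay in 2 of the 9 windows, and the other 7 lay inside the gene. Mean input in the 9 windows was 1.57 to 2.08 RPM, none of them low. Their WT means ranged from 2.74 to 5.35 normalized RPKM and their median CG count was 19.

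The largest loss was at the start window of Vmn1r27 (chr6:58215001-58220000; gene ENSMUSG00000071428, chr6:58213091-58218821, minus strand). In the cKO it had 0.841, 0.569 and 0.698 normalized RPKM (replicates 1, 3 and 4), and 3.06, 3.47 and 3.81 in WT replicates 1, 2 and 4. These values rest on 1, 12 and 29 reads in the cKO and 43, 36 and 117 reads in WT. The difference was −2.74 ± 0.347 (SE, adjusted p = 0.0164), and no cKO library came near the WT range. It is also the window of the printed Vmn1r27 promoter, which holds no CG.

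Vmn2r110 (ENSMUSG00000091259, chr17:20567760-20596423, minus strand) lost H3K4me3 at its start and in the next window of the gene body. The start window (chr17:20595001-20600000) had 1.28, 0.173 and 0.891 in cKO replicates 1, 3 and 4 and 2.59, 2.79 and 2.85 in WT replicates 1, 2 and 4, a difference of −1.96 ± 0.379 (adjusted p = 0.0462). The body window (chr17:20590001-20595000) had 1.67, 1.36 and 1.08 in the cKO and 3.90, 3.66 and 3.96 in WT, a difference of −2.47 ± 0.338 (adjusted p = 0.02). In both windows the genotypes were clearly apart. The cKO mean was lower in all 5 windows of the gene, and the other 3 windows did not pass the test, with adjusted p from 0.505 to 0.925.

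Its neighbour Vmn2r109 had a lost window 17.3 kb from its start (chr17:20545001-20550000), with 2.12, 0.833 and 1.37 normalized RPKM in the cKO and 3.95, 4.05 and 3.78 in WT (difference −2.48 ± 0.396, adjusted p = 0.0287). Further along the same array, Vmn2r100 (chr17:19510001-19515000) had 2.17, 2.55 and 2.39 in the cKO and 5.15, 3.86 and 5.55 in WT (difference −2.48 ± 0.455, adjusted p = 0.04). The WT libraries of Vmn2r100 spread widely, and the lowest of them was still above the highest cKO library. Vmn2r101 (chr17:19580001-19585000) fell from 3.07 ± 0.712 to 0.934 ± 0.208 (adjusted p = 0.0465), and Vmn2r103 (chr17:19780001-19785000) from 3.08 ± 0.564 to 0.956 ± 0.264 (adjusted p = 0.0399). The start window of Vmn2r103, printed above as the highest Vmn2r start in WT, had 5.06, 2.68 and 4.56 in the cKO and 4.89, 5.22 and 4.98 in WT, which overlap (adjusted p = 0.488). Within 1 gene, a window could therefore pass the test while its start window did not.

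Outside chromosome 17, the window of Vmn1r20 (chr6:57430001-57435000) had 2.12, 1.23 and 1.52 normalized RPKM in the cKO and 3.58, 3.86 and 3.84 in WT (difference −2.14 ± 0.36, adjusted p = 0.0327). The window of Vmn2r58 (chr7:41855001-41860000) had 2.84, 2.55 and 2.96 in the cKO and 5.62, 5.51 and 4.92 in WT (difference −2.57 ± 0.353, adjusted p = 0.0202). Vmn2r58 was the only window both among the 4 highest Vmn2r windows of WT and among the losses, and its cKO mean of 2.78 ± 0.213 was the highest left in a lost window.

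The losses were also present in the reads, which were recovered from the same deposited values and so are not separate support. In RPM, without any further normalization, the 3 cKO libraries lay under the 3 WT libraries in each of the 9 windows. At Vmn1r27 the cKO libraries had 0.0783, 1.01 and 0.999 RPM and the WT libraries 3.29, 3.32 and 3.57. At Vmn2r58 they had 2.90, 2.27 and 2.62 against 7.03, 5.25 and 4.70. edgeR on whole reads called 7 of the 9, and missed Vmn2r58 (adjusted p = 0.178) and Vmn2r100 (adjusted p = 0.0638). limma on log2(RPM + 0.5) of the same reads called 0 of the 9, with adjusted p from 0.152 to 0.247, and 0 of all windows. The calls depended on the libraries in the fit. Omission of cKO replicate 4 or of any single WT library left 0 of the 9 called, with adjusted p up to 0.178, in fits that called 0 or 1 of all windows, whereas all 9 were called when cKO replicate 1 was omitted and 3 of them when cKO replicate 3 was. No direction changed.

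**Figure D4:**
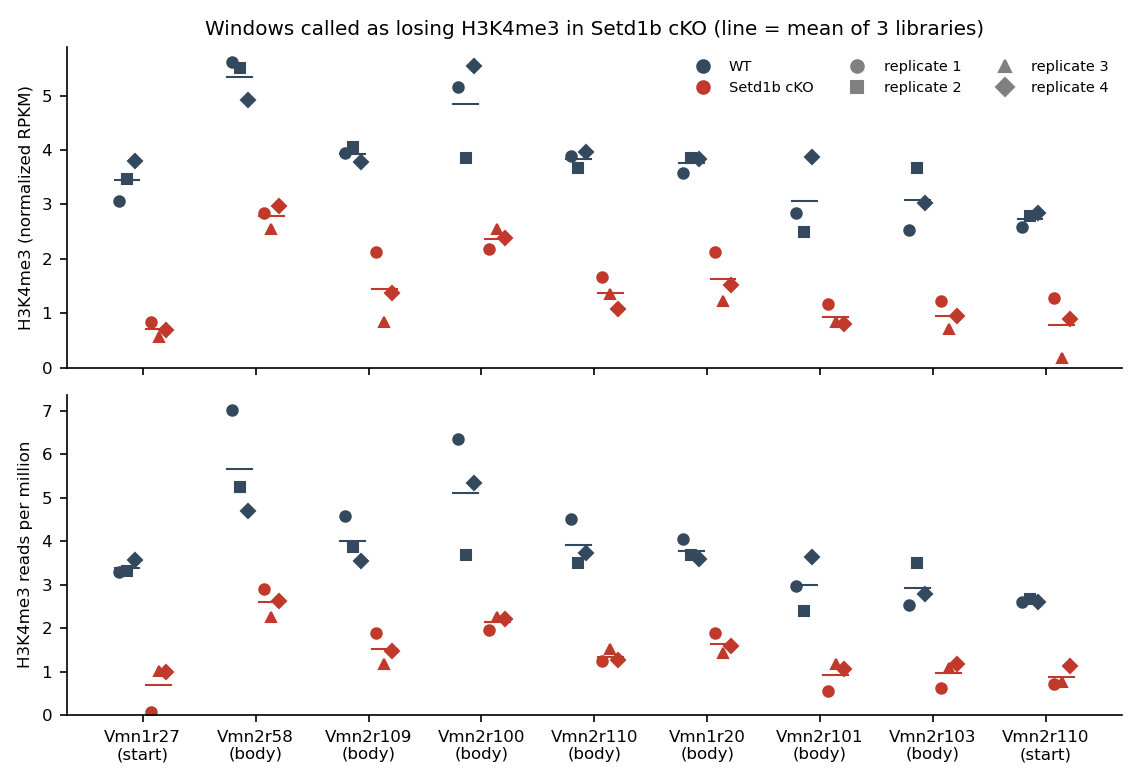
The 9 windows called as losing H3K4me3, in order of the size of the difference, as normalized RPKM (top) and as RPM (bottom). Each symbol is 1 library (blue WT, red Setd1b cKO) and lines are means of 3 libraries; in every window and on both scales all red symbols lie below all blue ones.

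**Figure D5:**
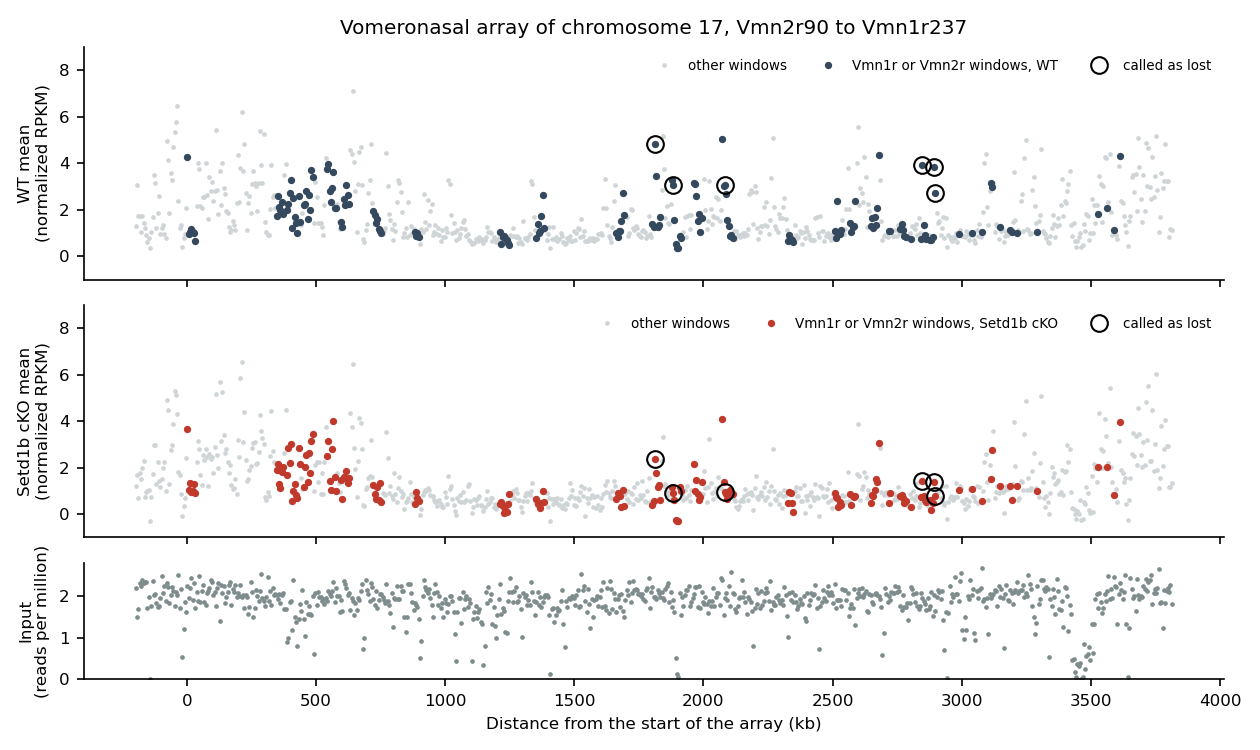
The chromosome 17 array from Vmn2r90 to Vmn1r237 with 200 kb on each side, as the WT mean (top), Setd1b cKO mean (middle) and mean input (bottom) of each 5 kb window against distance from the start of the array. Coloured points are the 166 vomeronasal windows, grey points the other windows, and circles the 6 losses, which are among the higher WT windows and fall to between 0.783 and 2.37 normalized RPKM in the cKO while input stays between 1.65 and 2.02.

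At start windows, the member of each subfamily with the smallest p for an increase was Vmn1r205 and Vmn2r10. Vmn1r205 (chr13:22590001-22595000) had 1.17, 2.42 and 2.24 normalized RPKM in the cKO and 1.07, 0.84 and 1.11 in WT (difference 0.937 ± 0.402, adjusted p = 0.31). Vmn2r10 (chr5:109005001-109010000) had 1.23, 1.76 and 1.13 in the cKO and 1.02, 1.03 and 0.719 in WT (difference 0.448 ± 0.344, adjusted p = 0.507). All cKO libraries were above all WT libraries in both, by a small margin in cKO replicate 1 at Vmn1r205 and in cKO replicate 4 at Vmn2r10, and neither passed the test. Chosen after their values were seen, the largest positive differences among the members were at Vmn2r117 (chr17:23460001-23465000; 5.68 ± 0.666 in the cKO and 4.48 ± 0.204 in WT) and Vmn2r26 (chr6:124055001-124060000, which also holds the start of Gm24843; 2.35 ± 0.828 and 1.21 ± 0.128), and did not pass it either. Likewise chosen after the fact, a pair of adjacent windows at the 3′ end of Vmn2r61, one of which also holds the start of Vmn2r-ps58, came closest to a further loss (adjusted p = 0.0513 and 0.0505), with cKO means of 0.893 ± 0.624 and 0.897 ± 0.145 and WT means of 2.84 ± 0.188 and 2.54 ± 0.219.

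Other genes of the vomeronasal system were read at the window of their annotated start. Of 21 genes, 1 gained H3K4me3 and 0 lost it, in a fit that called 0.563% of all windows as gains and 0.454% as losses. None of the 7 genes of signal transduction passed the test. All cKO libraries were above all WT libraries in 5 of them, as in 9.88% of all windows, a share not counted for start windows alone. Among these, Omp, which encodes the olfactory marker protein of mature sensory neurons, had 3.56, 4.93 and 4.80 normalized RPKM in the cKO and 1.91, 2.40 and 2.64 in WT (adjusted p = 0.0553). Plcb2, a phospholipase C gene of chemosensory cells, had 6.07 ± 1.20 in the cKO and 3.50 ± 0.682 in WT (adjusted p = 0.0725). Trpc2, the cation channel through which the vomeronasal neurons depolarize, had 1.30 ± 0.211 and 0.872 ± 0.281 (adjusted p = 0.523). The V2R-associated G protein gene Gnao1 had 1.08 ± 0.405 and 0.787 ± 0.315, and the V1R-associated Gnai2 had 5.66 ± 0.62 and 4.58 ± 0.272.

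The 5 formyl peptide receptor genes, which lie near Vmn2r genes on chromosome 17, had WT means from 0.762 to 2.05 normalized RPKM, and none passed the test (adjusted p from 0.499 to 0.982). In the H2-M group, nonclassical class I genes several of which are expressed with V2R receptors, H2-M10.2 gained H3K4me3 (chr17:36285001-36290000). It had 5.33, 4.79 and 3.74 in cKO replicates 1, 3 and 4 and 2.54, 2.49 and 1.86 in WT replicates 1, 2 and 4, a difference of 2.32 ± 0.453 (adjusted p = 0.0469). The other 8 H2-M genes did not pass the test. Of these, H2-M1 had all cKO libraries below all WT libraries, with 1.48 ± 0.461 in the cKO and 2.76 ± 0.388 in WT (adjusted p = 0.144), and H2-M10.5 had them above, with 4.94 ± 0.868 and 3.76 ± 0.339 (adjusted p = 0.262). Among the granulosa cell markers, Foxl2 gained H3K4me3 in the same fit (7.06 ± 1.12 in the cKO and 4.21 ± 0.337 in WT, adjusted p = 0.0415), and the other 5 did not pass the test, although all cKO libraries were above all WT libraries at Inha (5.52 ± 1.03 and 3.43 ± 0.283, adjusted p = 0.081) and Cyp19a1 (2.03 ± 0.65 and 1.44 ± 0.141, adjusted p = 0.491). None of the 6 oocyte markers passed the test. All cKO libraries were above all WT libraries at Gdf9 (10.7 ± 1.65 and 7.46 ± 0.427, adjusted p = 0.0598), and below them at Bmp15 (5.32 ± 0.313 and 7.79 ± 1.25, adjusted p = 0.071) and Zp3 (3.79 ± 0.343 and 4.69 ± 0.23, adjusted p = 0.255). The part of other cells in these gains was not tested.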

How the data were processed

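H3K4me3 ULI-nChIP-seq and input libraries of d21 GV oocytes were taken as deposited. The authors used Trim Galore 0.4.2, Bowtie2 2.2.9 with GRCm38, a filter on mapping quality and SeqMonk for 5 kb windows, and windows of high input were left out. As deposited, H3K4me3 is a score (enrichment-normalized RPKM) and input is a coverage signal (RPM per window, not per kb). Versions are those of the submitters' processing notes. Each value was a whole number of equal steps (100% of values within a tolerance of 0.05), which gave the reads per window; duplicates cannot be told from independent fragments.

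The genotypes were compared in each window by limma 3.58.1 under R 4.3.3 on the deposited values (two-sided, without an intensity trend), p-values were adjusted by Benjamini-Hochberg over all 544879 windows, and edgeR 4.0.16 on whole reads (windows with at least 10 reads) was an alternative. The functions were tested on simulated data. Gene positions came from GENCODE M21, where 991 of 1044 members were matched by identifier and 53 by symbol, and promoters from RefSeq (GRCm38.p6). Other tools were Python 3.11.15, pandas 2.3.3, numpy 2.4.6 and matplotlib 3.10.9.

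Members, gene lists and tests were chosen with earlier results of these data known. The text names every called member, the 4 windows of highest and 2 of lowest WT mean per subfamily, the start window of smallest p in each direction per subfamily, and arrays of at least 5 genes. Alternatives were log2(value + 1), an intensity trend, quantile normalization, filters on mean and input, autosomes only, adjusted p under 0.01, a replicate block, reads in place of values, and each library left out. Omission of the Nlrp5-ps windows was chosen after seeing the data.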

Additional observations from a re-analysis of the deposited data

How the results depend on the processing

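Called members numbered 9 in the reported fit, all of them losses. The number was 0 with log2(value + 1), 0 with quantile normalization, 0 with log2(RPM + 0.5) of whole reads and 0 at adjusted p under 0.01, settings which called 0, 1, 0 and 0 of all 544879 windows, against 14.8%, 15.8%, 9.58% and 11.2% of members at an unadjusted p under 0.05 (13.4%, 16.7%, 11.8% and 14.9% of all windows). It was 43 with an intensity trend (2.01% of all windows lost), 16 among mappable windows (0.787%) and 27 with edgeR on whole reads (1.22%), again all losses. Leaving out 1 library gave 0 to 27 members. The 27 were 25 losses and 2 gains without cKO replicate 1, and 3 losses remained without cKO replicate 3. All 9 were among the losses found with the trend, with the mappable windows, with a mean of at least 1 and on autosomes alone. The cause of these changes was not tested, except that fewer windows enter the adjustment under a filter.

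The labels do not say that equal replicate numbers share a litter or day. The deviations of same-numbered libraries from their group mean correlated at 0.319 for replicate 1 and 0.019 for replicate 4 over all windows, and at 0.458 and 0.0873 over the vomeronasal windows. A replicate block, which rests on those 2 shared numbers, gave 36 losses, the 9 among them, which is 3.45% of the members against 3.63% of all windows, so the members' share was no longer above that of all windows. With the block, the mean difference was −0.325 for Vmn1r and −0.382 for Vmn2r.

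The mean differences of Vmn1r and Vmn2r kept their sign under the alternatives run. Leaving out 1 library gave −0.57 to −0.23 for Vmn1r and −0.682 to −0.296 for Vmn2r, with cKO replicate 1 absent at the lower end and cKO replicate 3 absent at the upper end. Quantile normalization, under which the median of all windows no longer shifts by −0.103, gave −0.189 and −0.227, which are moves larger than the spread between libraries under that setting (SD 0.0677 and 0.0775). The values were −0.191 and −0.246 on log2(value + 1) and −0.09 and −0.16 as log2 reads over input, scales on which their size cannot be set against the deposited one. The difference between the subfamilies turned from 0.0563 normalized RPKM to −0.0624 as the log2 ratio over input. None of the 9 called windows changed direction under any of 15 alternatives.

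Depth limits single windows: in cKO replicates 1 and 4 the median window rested on 11 and 47 reads.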
